A study of Mus musculus with 4 samples.

Results

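7 genes tied to antibody secretion were examined for H3K4 signal in activated mouse B cells with and without PA1. They are Igj, Prdm1, Xbp1, Sdc1, Slamf7, Creb3l2 and Ell2, 7 of 22367 protein-coding genes annotated, and they were chosen by name with their earlier knockout over wild-type promoter and bin ratios in view. Their ratios are therefore a description and carry no test. The measurements are chromatin immunoprecipitation sequencing libraries, 1 from a culture labelled PA1-KO and 1 from a culture labelled PA1-WT, both with an antibody labelled H3K4. The cells of both were CD43-depleted splenic B cells from mice aged 6 to 14 weeks. They were grown for 2 days in LPS at 25 µg/ml plus 1 of 2 additions, IL-4 at 5 ng/ml or anti-IgD coupled to dextran at 2.5 ng/ml. Which of these additions was used, which methylation state the antibody detects, the PA1 allele, any Cre driver and the number of mice pooled are not given in the sources used here. The series has 4 samples, and the 2 labelled H3K4me4 were not analysed here.

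When a B cell becomes a plasma cell it turns into a secretory cell. PRDM1 (Blimp-1) is the transcription factor that shuts down B cell genes and drives this change, XBP1 is the unfolded protein response factor that enlarges the secretory pathway, and ELL2 is an elongation factor that favours the secreted form of the heavy chain message. Igj encodes the J chain, which joins units of secreted IgM and IgA. Creb3l2 encodes a membrane-bound bZIP factor of the endoplasmic reticulum, Sdc1 encodes syndecan-1 (CD138), the usual surface marker of plasma cells, and Slamf7 encodes a SLAM-family receptor. PA1 is a partner of PTIP, which is found with the H3K4 methyltransferases MLL3 and MLL4. Methylation of H3K4 marks promoters and enhancers, with its trimethylated form at active promoters and its monomethylated form more widely at enhancers.

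The sequences below show promoters of these genes, each as the 250 bases before the most upstream coding transcription start site (TSS). The stretch with most knockout reads in an island upstream of Igj is also shown. Promoter ratios were instead counted within 1 kb of the TSS with most reads. At Igj and Xbp1 that is a later TSS, and the 250 bases described here lie outside its window. They were read from the NCBIM37 genome (mm9), 5′ to 3′ on the strand of the gene. The RefSeq promoter of each of the 7 genes (GRCm38.p6; Igj is there called Jchain) was found unchanged in NCBIM37, with its TSS from 18 bases upstream to 73 bases downstream of that most upstream coding TSS. Capitals mark any of 13 searched motifs on either strand. The motifs of IRF and PRDM1 (a tandem repeat), of ETS with IRF (composite) and of NF-kB were searched under those names. The site shared by XBP1 and the CREB3 family was searched as TGACGTGG, the palindromic CRE as TGACGTCA and the octamer as ATTTGCAT. For the unfolded protein response element its core CCACG was used. E-boxes were searched with the letters CANNTG. For the AP-1 factors the letters were TGANTCA. The ETS factor site was GAGGAAG. The core promoter boxes were the CCAAT box itself, the GC box with the letters GGGCGG, and the TATA box with the letters TATAAA. Some of these letters can overlap, as in CANNTG and CCACG. Igj is shown as the gene with the highest ratio, Prdm1 and Slamf7 as the next in order, and Sdc1 and Ell2 as those below 1.
Igj promoter (chr5:88956917-88957166, minus strand): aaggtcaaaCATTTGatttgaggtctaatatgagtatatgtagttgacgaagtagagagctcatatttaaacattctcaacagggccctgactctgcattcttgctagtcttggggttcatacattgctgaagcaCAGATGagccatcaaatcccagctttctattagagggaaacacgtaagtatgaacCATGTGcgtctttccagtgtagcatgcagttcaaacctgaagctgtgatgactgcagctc
Igj upstream island (chr5:88989106-88989405, read on the minus strand): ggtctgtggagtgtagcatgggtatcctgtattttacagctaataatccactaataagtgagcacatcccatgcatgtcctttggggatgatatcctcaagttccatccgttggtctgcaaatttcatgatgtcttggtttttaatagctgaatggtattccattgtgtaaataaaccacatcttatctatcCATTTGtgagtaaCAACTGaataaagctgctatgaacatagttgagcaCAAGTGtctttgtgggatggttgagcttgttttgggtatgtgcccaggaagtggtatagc
Prdm1 promoter (chr10:44178555-44178804, minus strand): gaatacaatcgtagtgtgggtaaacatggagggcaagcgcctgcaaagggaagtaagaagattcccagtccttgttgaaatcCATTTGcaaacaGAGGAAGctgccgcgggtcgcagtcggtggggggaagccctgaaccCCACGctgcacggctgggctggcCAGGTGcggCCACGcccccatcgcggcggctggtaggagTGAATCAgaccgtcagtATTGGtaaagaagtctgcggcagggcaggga
Slamf7 promoter (chr1:173579150-173579399, minus strand): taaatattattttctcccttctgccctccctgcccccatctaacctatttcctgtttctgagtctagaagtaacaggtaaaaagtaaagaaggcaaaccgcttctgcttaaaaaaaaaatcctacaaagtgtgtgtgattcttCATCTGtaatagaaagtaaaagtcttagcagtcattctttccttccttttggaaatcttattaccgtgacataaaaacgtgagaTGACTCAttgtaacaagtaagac
Sdc1 promoter (chr12:8777879-8778128, plus strand): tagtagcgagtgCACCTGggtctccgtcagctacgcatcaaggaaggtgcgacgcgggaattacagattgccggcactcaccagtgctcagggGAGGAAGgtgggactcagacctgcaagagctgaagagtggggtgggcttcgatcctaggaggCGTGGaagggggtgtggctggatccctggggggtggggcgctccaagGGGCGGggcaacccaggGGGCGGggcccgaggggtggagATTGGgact
Ell2 promoter (chr13:75844682-75844931, plus strand): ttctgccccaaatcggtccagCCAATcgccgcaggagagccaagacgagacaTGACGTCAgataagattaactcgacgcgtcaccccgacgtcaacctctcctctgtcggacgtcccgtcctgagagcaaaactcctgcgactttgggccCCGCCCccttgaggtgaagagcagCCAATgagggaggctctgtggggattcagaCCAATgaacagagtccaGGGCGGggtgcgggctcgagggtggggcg

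The promoter sequences fell into unlike kinds. Igj and Slamf7 were poor in G and C, at 42.4% and 36.0%, and the median of 12177 promoters was 59.6%. The ratio of observed to expected CpG was 0.268 at Igj and 0.382 at Slamf7, and from 0.552 at Sdc1 to 0.812 at Ell2 in the other five. An AP-1 match was present at Prdm1 and Slamf7, 2 of 7, and in 3.80% of all promoters. Ell2 was the one member with the palindromic CRE, which 2.83% of promoters held, and it had 3 CCAAT matches and 2 GC boxes. Prdm1 and Sdc1 held CCACG and GAGGAAG, found in 42.5% and 10.4% of promoters. No member had a match to the IRF and PRDM1, ETS-IRF, TGACGTGG, octamer, NF-kB or TATAAA motifs in these 250 bases, which says only that the letters are not in this window.

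The knockout library held 5259995 reads on nuclear chromosomes and the wild-type library 5539475. Values are given as reads and as normalized RPM, which is reads per 1000000 with the libraries scaled by TMM (trimmed mean of M values). Ratios are knockout over wild type with exact 95% intervals. Each genotype has a single library, so no replicate and no test exists, and the intervals cover counting error only. Higher and lower below mean a difference of 1.5-fold or more with an interval that leaves out 1. The PA1 gene (2900092E17Rik) had 114 knockout reads and 261 wild-type reads at its promoter, 0.498 (0.396 to 0.624); which part was deleted is not stated, so this does not check the label. Scaling to total reads, or to reads outside enriched stretches, moved every ratio by -0.12 and -0.31 on the log2 scale, and ratios near 1 are to be read against those shifts. All 8 fixed B cell markers, such as Pax5 (570 knockout and 541 wild-type reads), were marked. T and NK cell markers had medians of 1 and 2 reads and myeloid markers 1.5 and 2.5. Cd3e (1 and 0) and Csf1r (0 and 0) were at or near 0, whereas Gata3 (166 and 187), Tbx21 (75 and 111), Itgam (35 and 27) and Cebpa (57 and 92) were not. Of 6 erythroid, endothelial, epithelial and stromal markers 5 had 50 or more reads, among them Pecam1 (389 and 352) and Epcam (71 and 63), and Hba-a1 had 2 and 0. Summed over each list, T and NK markers had 49.5 knockout and 53.8 wild-type RPM myeloid markers 19.0 and 21.5, and that last list 136 and 116. Their part in the results was not tested.

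Igj had the highest promoter ratio of the 7. Within 1 kb of its TSS (minus strand of chromosome 5, position 88955665) the knockout library had 182 reads, or 36.0 RPM, and the wild-type library 64 reads, or 11.1 RPM. The ratio was 3.25 (2.43 to 4.39). In a bulk culture, more cells bearing the mark and more mark per cell cannot be told apart, here and below. In wild type this was a weakly marked promoter, above 8.38% of the 12186 promoters compared. Of these 12186 promoters 0.665% were called higher and 4.90% lower. The earlier values that led to the list included this ratio, so nothing is read from the count of 1 higher and 0 lower among the 7. When reads outside enriched stretches set the scale, the Igj ratio was 2.62 (1.96 to 3.54), and with the trend over GC content removed it was 2.34 (1.75 to 3.16).

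This Igj TSS belongs to the transcript Igj-002. The other annotated TSS, of Igj-001, lies 1251 bases upstream at 88956916, within 6 bases of the RefSeq TSS. Around it the knockout library had 91 reads and the wild-type library 41, a ratio of 2.53 (1.73 to 3.76). The 2 windows share some reads. In both libraries the 200 bp with most reads lay near this upstream TSS, 1065 and 1075 bases before Igj-002, with 46 and 25 reads. Over the whole gene (88949537 to 88956916) there were 290 and 117 reads, a ratio of 2.83 (2.27 to 3.54). On the TMM scale the knockout library was therefore the higher one at either start site and over the gene body. The 1 kb window round Igj-002 stops short of the Igj-001 TSS. The stretch from 2 to 1 kb upstream of Igj-002, which holds the Igj-001 TSS, had 49 and 32 reads, at 1.75 (1.10 to 2.82). Scaled to reads outside enriched stretches it was not called, at 1.41 (0.886 to 2.28). The 3 promoters closest to Igj in level over the 2 libraries were those of Ctla4, Birc2 and 4930481A15Rik, at distances of 0.16, 0.44 and 0.46 on the log2 RPM scale. This likeness rests on 2 libraries.

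Prdm1 and Slamf7 came next, both with intervals above 1 and ratios under the 1.5-fold limit. Prdm1 (chromosome 10, TSS 44178493) had 70.3 RPM in the knockout and 51.5 RPM in the wild-type library, from 355 and 297 reads. Its ratio was 1.36 (1.17 to 1.60). Slamf7 (chromosome 1, TSS 173579138) had 67.7 and 52.7 RPM from 342 and 304 reads, a ratio of 1.28 (1.10 to 1.5). On the scale set by reads outside enriched stretches these were 1.10 (0.942 to 1.29) and 1.04 (0.886 to 1.21), both with intervals that included 1. Slamf7 was at 0.937 when trends over GC content and level were both removed. A remote Prdm1 TSS, of the noncoding transcript Prdm1-003 at 44248307, lies 69814 bases upstream. Its 153 and 208 reads gave 0.839 (0.677 to 1.04), an interval that includes 1.

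For the secretory pathway factors Xbp1 and Creb3l2 the promoter intervals included 1. Xbp1 (chromosome 11, TSS 5421666) had 84.1 RPM in knockout and 75.3 RPM in wild type, a ratio of 1.12 (0.975 to 1.28). It was the most strongly marked of the 7 in wild type, above 93.9% of compared promoters. Creb3l2 (chromosome 6, TSS 37392146) had 60.2 and 51.3 RPM and a ratio of 1.17 (0.995 to 1.38). Both turned below 1, to 0.902 and 0.946, when scaled to reads outside enriched stretches. Within 2 kb of the TSS both had intervals above 1, Xbp1 at 1.26 (1.12 to 1.41) and Creb3l2 at 1.26 (1.10 to 1.45), and with the GC trend removed Xbp1 was at 1.19 (1.04 to 1.37). At the first coding Xbp1 TSS (Xbp1-001, 5420662), 1004 bases upstream of the one with most reads, 234 and 244 reads gave 1.09 (0.911 to 1.31). The second Creb3l2 TSS, deep in the gene, had 1 read in each library.

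Sdc1 and Ell2 had ratios below 1 within 1 kb of the TSS, and for Ell2 this turned with the window. Sdc1 (chromosome 12, TSS 8778609) had 35.4 RPM in the knockout and 48.9 RPM in the wild-type library, from 179 and 282 reads, a ratio of 0.724 (0.597 to 0.877). At its first coding TSS, Sdc1-001 at 8778129, 118 against 204 reads gave 0.660 (0.522 to 0.832), which passed the limit for lower. All 5 annotated Sdc1 start sites, whose windows overlap, lay between 0.660 and 0.724. The Sdc1 promoter island also covers an exon of the annotated noncoding gene Gm4755. Ell2 (chromosome 13, TSS 75844932) had 23.9 and 30.9 RPM from 121 and 178 reads, a ratio of 0.776 (0.611 to 0.983). Within 500 bp of the TSS Ell2 was at 1.03 (0.693 to 1.51), and within 2 kb at 1.12 (0.958 to 1.30). Scaled to reads outside enriched stretches both were called lower, Sdc1 at 0.585 (0.482 to 0.708) and Ell2 at 0.626 (0.493 to 0.794). With the GC trend removed Sdc1 was at 0.853 (0.703 to 1.03) and Ell2 at 0.833 (0.656 to 1.06), both within counting error. With GC and level trends both removed Sdc1 was at 0.815 (0.672 to 0.987), an interval below 1, and Ell2 at 0.877 (0.690 to 1.11).

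**Figure D1:**
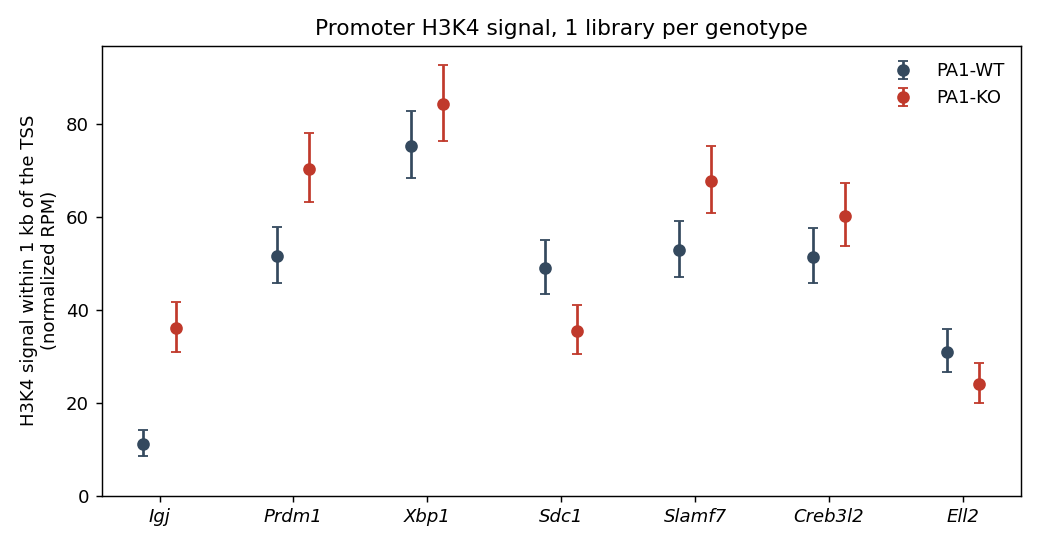
H3K4 signal within 1 kb of the TSS of each gene, in normalized RPM, for the PA1-WT (dark) and PA1-KO (red) library, with bars for the 95% Poisson counting interval of 1 library. Igj stands at 11.1 and 36.0 RPM, Sdc1 at 48.9 and 35.4 RPM, and the bars overlap within Xbp1, within Creb3l2 and within Ell2.

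Signal around Igj was then followed in 1 kb bins for 50 kb either side, where a bin with 20 or more reads was compared. Of 22 such bins 14 were higher in the knockout library and 1, from 39 to 38 kb upstream, was lower (42 and 72 reads). Over bins round all compared promoters, 4.90% were higher and 5.20% lower. 4 of the higher bins lay from 2 kb upstream to 2 kb downstream of the Igj TSS, with ratios from 1.75 to 4.07. The other 10 lay from 26 to 40 kb upstream, among and between the promoters of Utp3 (a ribosome biogenesis factor, 27.8 kb upstream) and Rufy3 (38.5 kb upstream). Those promoters themselves were neither higher nor lower, with 434 and 455 reads at Utp3 (ratio 1.09, 0.952 to 1.24) and 192 and 197 at Rufy3 (1.11, 0.907 to 1.36). The lower bin held the Rufy3 TSS. The higher bins beside it, starting 40 and 38 kb upstream (1.58 and 1.79), also lay in the Rufy3 promoter island (88992601 to 88995800). As a whole that island was at 1.37 (1.16 to 1.62). Downstream of Igj, Enam, an enamel protein gene, had 1 read in each library.

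Between the Utp3 and Rufy3 promoters lay an island of enrichment (88988001 to 88990800, 2800 bp), 33.7 kb upstream of Igj and 3265 bp from the nearest annotated TSS of any protein-coding gene. It is intergenic. Here 235 reads came from the knockout and 53 from the wild-type library (46.5 and 9.19 RPM), giving 5.06 (3.74 to 6.95). The knockout level there was near that of the Igj promoter island (45.5 RPM over 2400 bp), which had 15.8 RPM in wild type. The 3 bins from 35 to 32 kb upstream, over this island, had ratios from 3.12 to 7.08. The next 3, from 32 to 29 kb upstream, had ratios from 2.80 to 4.05 and lay over the edge of the Utp3 promoter island (88982201 to 88987600), which as a whole had 831 and 644 reads and was at 1.47 (1.33 to 1.63). In the 300 bases printed above, 41 against 5 reads gave 9.36 (3.70 to 30.3), a stretch chosen for its knockout reads. Of 11979 islands over 1 kb from any TSS, 5.67% were higher and 5.71% lower, and 36, this one included, had a ratio as high. The bins over this island were in view when the genes were chosen, so nothing is read from that rank. Scaled to reads outside enriched stretches the ratio was 4.09 (3.02 to 5.61).

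The island has a GC content of 45.3%. Among 3676 islands within 2.5 percentage points of that, the median ratio was 1.08 and 7.75% were higher, whereas the median over all such islands was 0.983. In the island, 83.0% of the 25-base words occur once in the genome, and 68.8% in the 300 bases printed, against 97.5% in the Igj promoter window. Whether the printed stretch belongs to a repeat was not tested. The printed stretch held 3 E-box matches, a motif present in 79.8% of equally chosen 300-base windows of the 11979 islands, and none of the other 12 motifs. No position within 50 kb of any of the 7 TSSs mismatched the reference in 1 library alone, among positions with 3 or more reads in each library and 80% or more of the mismatching library reads differing. Over the genome there were 118 such positions for the knockout and 151 for the wild-type library. With so few, 0 near these genes is little to read from, and there were 0 within 5 Mb of each TSS too. Whole chromosomes were uneven, with 1 knockout and 46 wild-type positions on that of Creb3l2, and 9 and 0 on that of Slamf7. Whether the 2 cultures differed in genetic background was not tested.

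**Figure D2:**
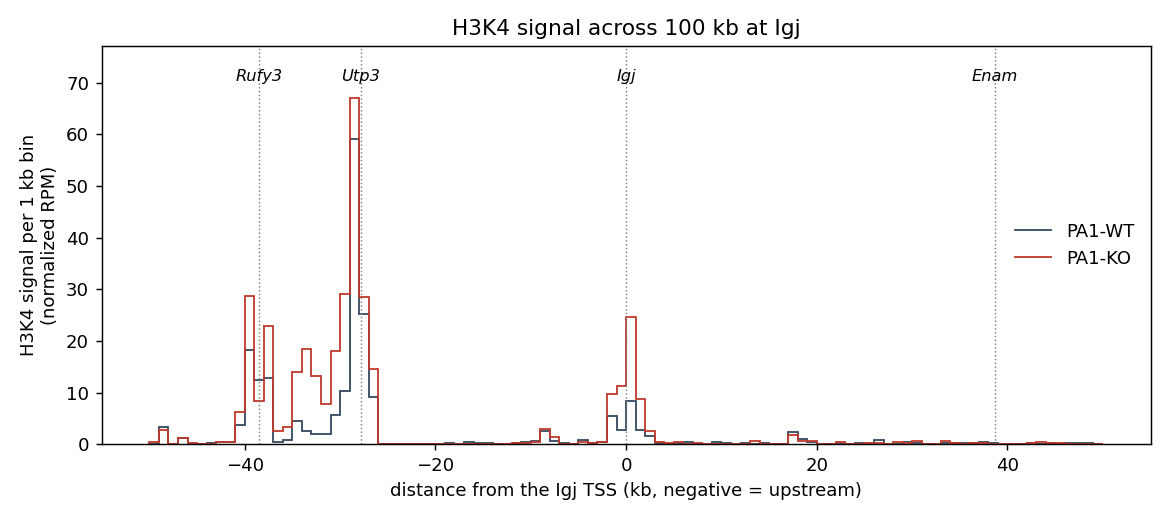
H3K4 signal in 1 kb bins (normalized RPM) against distance from the Igj TSS in kb, for PA1-WT (dark) and PA1-KO (red), with dotted lines at annotated TSSs. The knockout line lies above the wild-type line at Igj and between Utp3 and Rufy3, where the island held 46.5 and 9.19 RPM, while the bin at the Utp3 peak had a ratio of 1.13.

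Leaving out Igj, 11 of 71 compared bins were higher and 1 was lower, against 25 and 2 of 93 with it. Of those 11, 10 were among the 38 bins compared from 5 kb before to 10 kb after a TSS (26.3%), where 5.32% of the bins of all compared promoters were higher. Elsewhere 1 of 33 bins was higher (3.03%), a share near the 4.63% over all compared promoters. Bin ratios were in view when the genes were chosen. Nothing is therefore read from these bin counts, from those at Igj above or from the downstream ones below. With the scale set by reads outside enriched stretches, 1 bin of these 6 genes was higher, at Xbp1. More were lower on that scale, 2 at Sdc1 and 1 each at Xbp1, Creb3l2 and Ell2. The 1 higher bin of the 33 elsewhere, 29 kb downstream of the Slamf7 TSS, lay over an intergenic island (173549201 to 173550400). This island had 57 against 37 reads, giving 1.76 (1.14 to 2.74). It was not called when scaled to reads outside enriched stretches, at 1.42 (0.922 to 2.21). Within 50 kb of the 7 TSSs, 28 islands included 4 higher (Igj promoter, Igj intron, the Igj upstream island and this one) and none lower; over all islands 3.35% were higher and 5.39% lower. The other 12 islands away from promoters round these 6 genes were neither higher nor lower. An intergenic island 35.7 kb upstream of Xbp1 had 164 and 167 reads (1.12, 0.898 to 1.4), and one in the body of Prdm1, 8.99 kb downstream of its TSS, had 167 and 158 reads, at 1.21 (0.965 to 1.51). Slamf7 lies in the SLAM gene cluster, and its neighbours within 50 kb, Cd48 and Ly9, had ratios of 1.13 (0.982 to 1.29) and 1.33 (1.11 to 1.59).

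Just downstream of the promoters, 3 of the 7 genes were called higher. In the stretch from 1 to 4 kb downstream, Igj had 59 and 26 reads (ratio 2.59, 1.61 to 4.28), Creb3l2 147 and 99 (1.69, 1.30 to 2.21) and Ell2 322 and 227 (1.62, 1.36 to 1.93). Prdm1 at 1.47 (1.31 to 1.65), Slamf7 at 1.48 (1.31 to 1.68) and Xbp1 at 1.46 (1.20 to 1.76) lay under the limit, and Sdc1 was at 1.0 (0.689 to 1.45). Round all promoters the same stretch also leaned this way, with a median ratio of 1.14 over 5577 promoters, 11.4% higher and 4.12% lower. Scaled to reads outside enriched stretches 1 of the 7 was called, Igj at 2.09 (1.30 to 3.46), with Creb3l2 at 1.37 (1.05 to 1.78) and Ell2 at 1.31 (1.10 to 1.56).

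Ell2 had ratios on opposite sides of 1 in these neighbouring stretches. The first 1 kb of the gene had 81 reads in knockout and 137 in wild type, at 0.675 (0.506 to 0.895), just short of the limit for lower. In the next 3 bins the reads were 222 and 166, 78 and 50, and 22 and 11, with ratios of 1.53, 1.78 and 2.28, all called higher. Scaled to total reads 1 of these 3 was called, at 1.64 (1.14 to 2.39), and scaled to reads outside enriched stretches none, at 1.23, 1.44 and 1.84, while the first 1 kb was called lower under both, at 0.623 and 0.545. Set against the promoter within each library, which needs no scaling, the downstream stretch of Ell2 was 2.10-fold (1.56 to 2.83) higher in the knockout library. The same comparison gave 1.45 (1.06 to 1.98) at Creb3l2, 1.38 (0.904 to 2.11) at Sdc1, 1.30 (1.03 to 1.65) at Xbp1, 1.15 (0.942 to 1.41) at Slamf7, 1.08 (0.884 to 1.31) at Prdm1 and 0.799 (0.451 to 1.44) at Igj. Over 5577 promoters its median was 1.11, 9.79% were higher and 2.62% lower, and Ell2 lay above 98.9% of them. This measure is built from promoter and bin reads whose ratios were in view when the genes were chosen. Nothing is therefore read from the rank of Ell2.

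At Creb3l2 the bins on either side of the first 1 kb of the gene were called higher, 107 and 69 reads upstream (ratio 1.77, 1.30 to 2.43) and 118 and 79 downstream (1.70, 1.27 to 2.30). That first 1 kb had 196 and 226 reads, at 0.990 (0.813 to 1.20). Neither side of Creb3l2 was called when scaled to reads outside enriched stretches, at 1.43 (1.05 to 1.96) and 1.38 (1.03 to 1.85). At Xbp1 the bin from 2 to 1 kb upstream had 73 and 38 reads (2.19, 1.46 to 3.34) and the bin from 1 to 2 kb downstream 119 and 77 (1.76, 1.31 to 2.38), and both were called higher. Between them the bin just before the TSS with most reads had 162 and 208 reads (0.889, 0.719 to 1.10). The bin just after that TSS had 263 and 226 (1.33, 1.11 to 1.59). Distances here and in the shares below are from the TSS with most reads. At Xbp1 it lies 1004 bases inside the gene, counted from the first coding TSS. The bin just before it is thus within the gene, and the bin from 2 to 1 kb upstream ends at about the coding TSS. The upstream Xbp1 bin alone of these was called when scaled to reads outside enriched stretches, at 1.77 (1.18 to 2.69), and with 2 kb bins no Xbp1 bin was called higher. Over all promoters, bins from 1 to 2 kb downstream were higher in 11.1% and lower in 3.59%, bins of the first 1 kb in 1.34% and 6.11%, bins of the last 1 kb before the TSS in 2.48% and 3.51%, and bins from 2 to 1 kb upstream in 9.41% and 2.76%. From 1 to 2 kb downstream 5 of the 7 genes were higher: Igj, Xbp1, Slamf7, Creb3l2 and Ell2. Scaled to total reads, Slamf7 at 1.48 and Ell2 at 1.41 were no longer called. Scaled to reads outside enriched stretches Igj alone was called, at 2.53 (1.40 to 4.81).

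**Figure D3:**
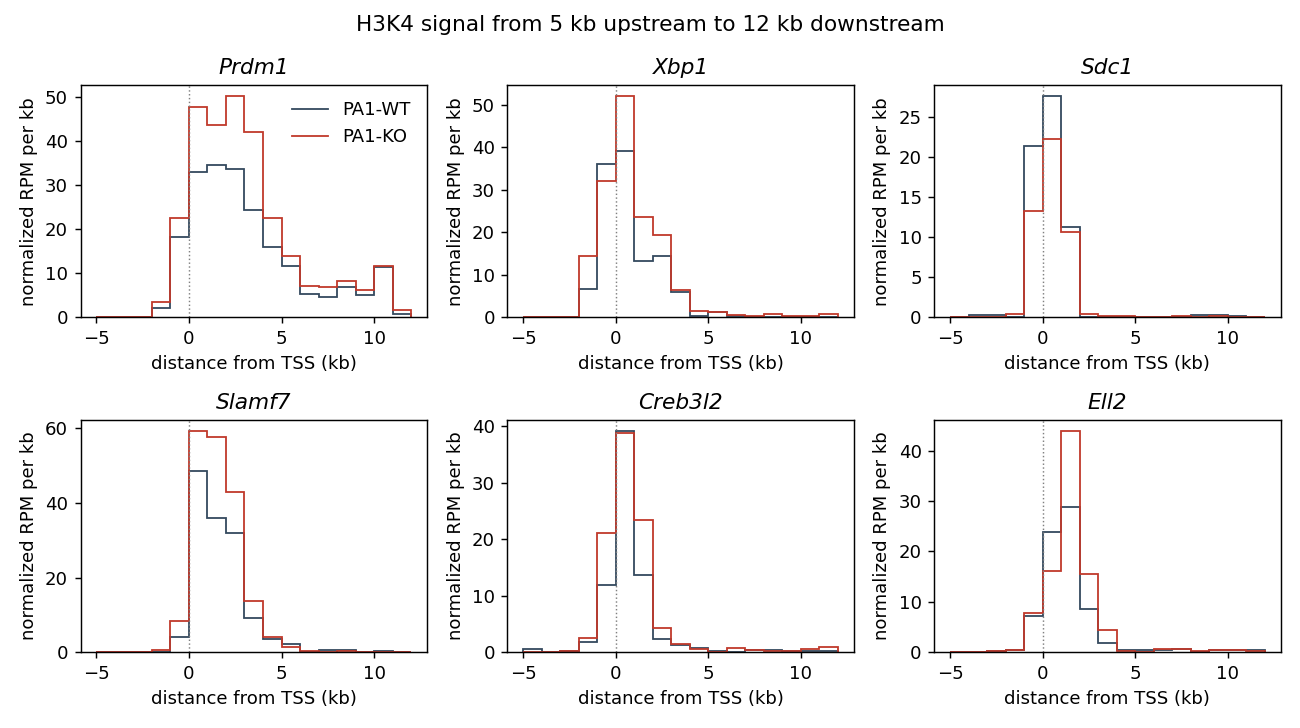
H3K4 signal in 1 kb bins (normalized RPM per kb) from 5 kb upstream to 12 kb downstream of the TSS of the other 6 genes, PA1-WT dark and PA1-KO red. At Ell2 the red line is below the dark one in the first 1 kb (81 against 137 reads) and above it in the next (222 against 166), and at Sdc1 it is below in both bins at the TSS.

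**Figure D4:**
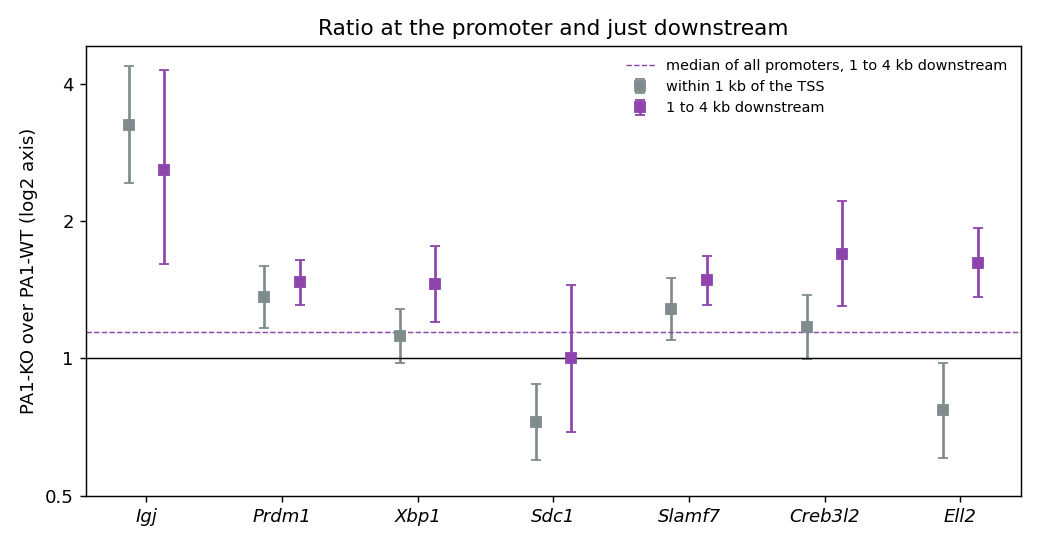
Ratio of knockout to wild type (log2 axis) within 1 kb of the TSS (grey) and from 1 to 4 kb downstream (purple), with exact 95% counting intervals; the dashed line is the median of 5577 promoters for the downstream stretch, 1.14. Ell2 is at 0.769 in the first and 1.62 in the second, the window here being shorter by 1 base than that of the promoter values above.

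The H3K4 stretch at several of these genes was broad. The island over the Prdm1 promoter spanned 8200 bp (44171801 to 44180000), wider than 99.4% of 12978 promoter islands, whose median was 1800 bp. Its 1275 and 1028 reads gave 1.42 (1.30 to 1.54). Xbp1 had 5400 bp (wider than 97.0%), Slamf7 4400 bp (94.0%), Ell2 4000 bp (91.8%) and Creb3l2 3600 bp (88.7%). Sdc1 with 2600 bp and Igj with 2400 bp were nearer the middle. The share of wild-type promoter reads downstream of the TSS with most reads ran from 52.1% at Xbp1 to 92.1% at Slamf7. The median over compared promoters was 63.9%, and Sdc1, at 56.4%, was also below it. At Xbp1, Igj and Sdc1 a coding TSS lies further upstream, so some upstream reads are there within the gene too. At Slamf7 the fewer upstream reads, 42 and 24, had a ratio of 2.00 (1.18 to 3.45), and the downstream reads, 300 and 280, one of 1.22 (1.04 to 1.44). Scaled to reads outside enriched stretches these were 1.61 (0.954 to 2.78) and 0.987 (0.836 to 1.17), both with intervals that included 1.

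Of 24 other genes of the plasma cell program, 22 had 50 or more reads, and 0 were higher and 0 lower. Over all compared promoters 0.665% were higher and 4.90% lower, so counts of 0 are near the background. Their median ratio was 1.03, and that of all compared promoters 1.0. The extremes were Derl3, of endoplasmic reticulum degradation, at 1.36 (1.09 to 1.71) and Fkbp11, a prolyl isomerase of secretory cells, at 0.843 (0.686 to 1.03). Irf4, a transcription factor needed for plasma cells, was at 0.929 (0.822 to 1.05). Atf6, an unfolded protein response sensor, was at 1.26 (1.11 to 1.43). Tnfrsf17, which encodes the plasma cell survival receptor BCMA, had 1 and 0 reads, and Cd28 7 and 2. The 7 genes themselves had a median of 1.17, which their choice fixes in part.

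Of 24 B cell genes that plasma cells switch off, 0 were higher and 0 lower, again near the shares over all promoters (0.665% and 4.90%), and the median was 1.03. The highest was Bach2, a repressor of Prdm1, at 1.33 (1.10 to 1.62), and the lowest Id3, an inhibitor of E proteins, at 0.753 (0.641 to 0.884). Pax5 was at 1.20 (1.07 to 1.36) and Bcl6, which also represses Prdm1, at 1.09 (0.857 to 1.39). Scaled to reads outside enriched stretches, Id3 was called lower at 0.608 and the IgE receptor gene Fcer2a at 0.629, on a scale where 16.7% of all compared promoters were lower; with GC and level trends both removed Fcer2a was lower at 0.660.

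A further 30 genes comprised PRDM, syndecan, SLAM and CREB3 family members and elongation factors that are relatives or partners of ELL2. Of these 25 were compared, with 1 higher and 2 lower, where all promoters gave 0.665% and 4.90%, and a median of 1.04. Slamf9 was higher with 69 and 50 reads (1.57, 1.08 to 2.31). Cd244, another SLAM receptor, was lower with 29 and 56 (0.591, 0.364 to 0.941), and the syndecan Sdc3 with 40 and 69 (0.662, 0.437 to 0.991). These 3 had few reads. Slamf9 did not pass at 1.45 with total reads as the scale, nor Cd244 at 0.785 and Sdc3 at 0.850 with the level trend removed. Next after Slamf9 among SLAM genes came Slamf6 at 1.37 (1.20 to 1.56) and Ly9 at 1.33. Scaled to reads outside enriched stretches, Prdm16 at 0.583, Slamf1 at 0.658 and Creb3l1 at 0.648 were also called lower, as were 16.7% of all compared promoters. The relatives and partners of ELL2 ran from Cdk9 at 0.908 to Aff4 at 1.13, the PRDM genes from Prdm16 at 0.723 to Prdm10 at 1.11, and of the CREB3 genes Creb3l1 was at 0.802 and Creb3 at 1.09.

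**Figure D5:**
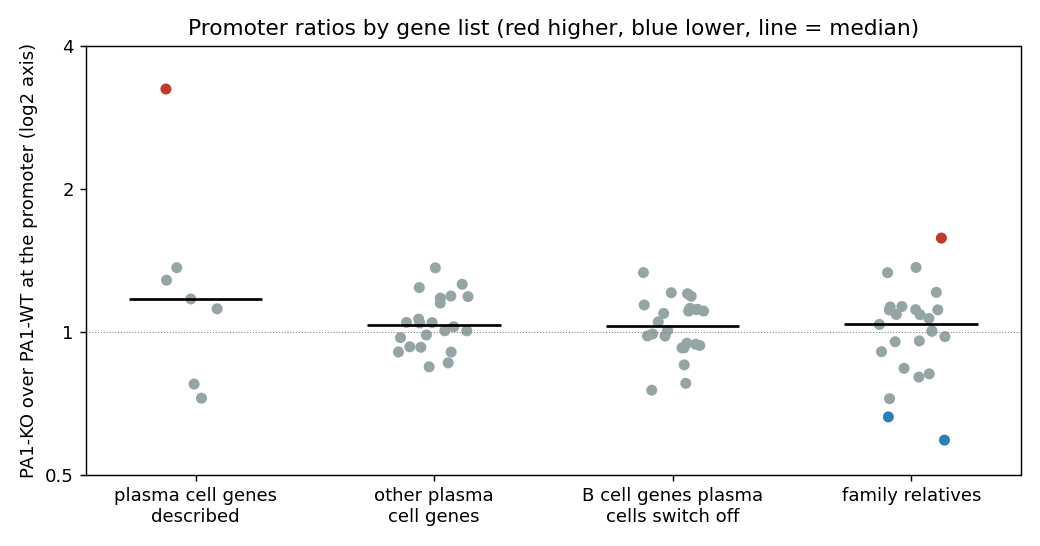
Knockout over wild-type ratio at the promoter (log2 axis) for each gene with 50 or more reads in 4 lists; red points were called higher, blue lower, and black lines are list medians (1.17, 1.03, 1.03 and 1.04 from left to right). Igj at 3.25 stands apart from the other points.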

How the data were processed

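As deposited, each file lists reads of 25 bases, 1 a line, with position, strand, a match descriptor and a score column that the authors left at 0 and that was not used. They carry no normalized value. mm9 and SICER are named without roles or versions, per the submitters' processing notes. Which aligner was used was not given in the sources used here. No position and strand repeats within a file. For reads with 1 mismatch the descriptor's base equalled the NCBIM37 base in 100% of cases at 1-based positions.

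Positions of 5′ ends were moved 75 bp toward the fragment centre and counted within 1 kb of the GENCODE vM1 TSS with most reads per protein-coding gene; 12186 of 22367 genes with 50 or more reads in all were compared. Libraries were scaled by TMM (trims 30% and 5%). Intervals are exact conditional binomial (Clopper-Pearson), or for the downstream stretch against the promoter the exact conditional odds ratio. Libraries were amplified for 18 PCR cycles without molecular identifiers. As no position and strand repeats within a file, PCR copies and separate molecules at the same position cannot be told apart and count once. This can lower counts where signal is dense. Islands came from both libraries together (200 bp windows, Poisson probability under 1e-05 over 80% of the genome, gaps up to 200 bp, 20 or more reads). Trends were removed by lowess. Named genes were the 7 genes, those past the limit or at the ends of each list, neighbours within 50 kb, and the 3 promoters nearest Igj; others named, such as markers, Irf4, Atf6, Pax5 and Bcl6, were picked after their values were seen. The genes and lists were chosen with earlier results of these data known. One listed name, Mzb1, was matched by RefSeq synonym. Scripts were tested on simulated data with Python 3.11.15, scipy 1.17.1 and statsmodels 0.14.6.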

Additional observations from a re-analysis of the deposited data

How the results depend on the processing

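Igj was called higher under each of 12 alternatives, with ratios from 2.34 (GC trend removed) to 3.63 (level trend removed). No other of the 7 promoters was called higher under any of them. The count of lower promoters went from 0 to 2 (Sdc1 and Ell2) when scaled to reads outside islands and promoters, and to 1 (Sdc1) at the most upstream annotated TSS. Scaling to reads outside islands and promoters gave 17 higher and 2034 lower of all compared promoters, against 81 and 597. Of the 1 kb bins, 25 were higher and 2 lower; this became 11 and 1 with 2 kb bins, 11 and 6 when scaled to reads outside islands and promoters, 20 and 4 when scaled to total reads, and 11 and 1 without Igj. Higher islands within 50 kb went from 4 to 2 and lower ones from 0 to 2 with background scaling. Stretches 1 to 4 kb downstream called higher went from 3 to 1 with background scaling and to 2 with total reads. Leaving out Igj and the scalings of that stretch were chosen after seeing the data. The cause of these shifts was not tested. Ell2 was above 1 with the 500 bp window, at 1.03, and the 2 kb window, at 1.12; Prdm1 was at 0.846 at its most upstream TSS. No paired analysis was possible because each genotype has 1 library. Low read numbers, as at the Igj promoter in wild type, widen the intervals.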
